A study of Homo sapiens with 18 samples.

Results

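HEK-293E cells, a human embryonic kidney line grown for expressing proteins, were compared after 4 h and after 1 h of feeding, both without Torin1. The comparison takes 6 of the 18 libraries of the series, 3 labelled as fed for 4 h and 3 labelled as fed for 1 h, and covers every gene with enough reads to test, 16414 in all. All cells had first been kept overnight in DMEM with little serum. Feeding meant a change to the usual growth medium, DMEM with high glucose, L-glutamine and fetal bovine serum. The other 12 libraries are starved cells without feeding, and starved, 1 h fed and 4 h fed cells given Torin1, an inhibitor of the kinase mTOR, in groups of 3. They are used here to estimate the spread and to set values beside those of the 6. No dose or timing of Torin1 was found in the labels. Everything comes from 1 cell line, and no label says whether the 3 libraries of a group come from separate cultures. The p values therefore rest on the variation among these libraries, which may be technical.

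Fresh medium and serum switch on immediate early genes, among them EGR1, EGR3, FOS and FOSB, through the ERK pathway and the serum response factor SRF, with no need for new protein. Their transcripts are short-lived, and the response is known to be brief. Serum and amino acids also activate mTOR complex 1, which promotes ribosome production, tRNA transcription by RNA polymerase III, and the synthesis of lipids and nucleotides. ZNF143 is a zinc finger protein that binds the promoters of many housekeeping genes and of small nuclear RNA genes, and CHMP6 is a subunit of ESCRT-III, the complex that cuts membranes at endosomes and in cell division.

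Between 1 h and 4 h of feeding, EGR1, EGR3, FOS and FOSB fell to near or below their starved level. Other genes did not differ by the test between starved and 1 h fed cells and differed between 1 h and 4 h. Among them ZNF143 fell 6.44-fold, and CHMP6, TTC5 and TUBGCP3 rose 16-fold, 13.4-fold and 10.03-fold. The metallothionein gene MT1X, already higher at 1 h than in starved cells, rose 21.4-fold. Of 16414 genes, 6540 were called at an edgeR adjusted p under 0.05 (39.8%), 3565 higher at 4 h (21.7%) and 2975 lower (18.1%). Changes of at least 2-fold were called upward for 1234 genes (7.52%) and downward for 591 (3.60%). In 3889 genes with a positive change (23.7%) and 3316 with a negative one (20.2%), the CPM values of the groups did not overlap. The median log2 fold change was 0.75 among the higher genes and −0.56 among the lower ones, and −0.00 over all genes tested. In these bulk libraries, fewer cells expressing a gene and less RNA per cell cannot be told apart.

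The 6 libraries held 11071924 to 12450245 counts and 14404 to 14813 genes with at least 10 reads. Levels are in CPM, counts scaled to the library size. Taking 3 counts as the limit, a gene without reads may still be at 0.241 to 0.271 CPM, depending on the library, which covers counting error only. The first principal component of the 6 held 52.1% of the variance and separated the times, and the second held 14.4% and set 4 h replicates 2 and 3 apart, at 33.6 and −34.5. Mitochondrially encoded genes held 2.95% to 3.07% of counts at 1 h and 2.74% to 3.81% at 4 h. Summed markers of HEK-293 cells came to 1055 to 1275 CPM at 1 h and 1053 to 1103 CPM at 4 h, although PAX8, a marker on that list, was at or near 0 and CDH2 and LIN28B were called lower at 4 h. The 10 markers of differentiated kidney summed to 9.83 to 13.2 CPM at 1 h and 9.50 to 18.4 CPM at 4 h, most of it LRP2, and 4 of them were at 0 in all 6 libraries, and the endothelial list summed to at most 2.40 CPM.

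EGR3 (ENSG00000179388), a zinc finger transcription factor of the early growth response family, stood at 17.4, 11.8 and 14.1 CPM in the 1 h libraries and at 0.963, 1.44 and 1.78 CPM in the 4 h libraries. Every 1 h library lay above every 4 h library, and EGR3 fell by 3.37 on the log2 scale (SE 0.33, edgeR adjusted p = 2.03e-09). EGR1 (ENSG00000120738), the founding member of the family, went from 153, 77 and 84.1 CPM to 13, 13.9 and 8.90 CPM. Replicate 1 was the highest of the 1 h libraries, none of which came near the 4 h level, and EGR1 fell by 3.13 (SE 0.35, edgeR adjusted p = 7.89e-06). EGR2, another member, was at 4.32, 2.29 and 2.32 CPM and then at 0.788, 0.384 and 0.843 CPM, and fell by 2.12 on the log2 scale (SE 0.48, edgeR adjusted p = 0.000661).

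The AP-1 complex pairs a FOS protein with a JUN protein. FOSB went from 24.8, 16.4 and 15.7 CPM to 3.94, 2.88 and 4.68 CPM, and FOS from 22.9, 12.7 and 17.2 CPM to 3.68, 3.26 and 3.75 CPM. Both fell by 2.30 on the log2 scale (SE 0.31 and 0.34, edgeR adjusted p = 6.37e-06 and 8.32e-06), with no overlap between the times. JUNB fell by 0.94 (SE 0.15) and JUND by 0.79 (SE 0.11). JUN stood at 625, 587 and 488 CPM and then at 462, 400 and 448 CPM. Its libraries did not overlap either, but the change of −0.38 (SE 0.18) missed the threshold (edgeR adjusted p = 0.124). JUN was called in the fit of the 6 libraries alone (edgeR adjusted p = 0.00839).

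Of 25 immediate early transcription factors tested, 17 were lower at 4 h (68%, against 18.1% over all genes), 2 higher (8%, against 21.7%) and 6 not called. Their median log2 fold change was −0.90. The lower genes included IER2 (−1.31, SE 0.12), NR4A1, NR4A2, KLF6, KLF10 and SRF itself. The higher genes were FOSL2 and KLF2. FOSL2 lost its call without 1 h replicate 3 or 4 h replicate 1, and KLF2 lost its call in the fit of the 6 libraries alone or without replicates 1 or 3 of either time. MYC, another growth-induced transcription factor, was at 135, 173 and 126 CPM and then at 167, 158 and 184 CPM and was not called (0.23, SE 0.11, edgeR adjusted p = 0.0863), though it was without 1 h replicate 2. Among 20 other early response genes 7 were lower (35%, against 18.1% over all genes) and 0 higher. The lower genes there included the stress-inducible growth arrest genes GADD45B (−1.26, SE 0.20) and GADD45A (−1.10, SE 0.17).

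The starved libraries give the starting level. They entered both the comparison of 1 h with starvation and that of 4 h with starvation, so these 2 share libraries with each other and with the comparison over time. At 1 h 106 genes were called against starvation (0.646%), 79 higher (0.481%) and 27 lower (0.164%), and at 4 h 6940 (42.3%), 3801 higher (23.2%) and 3139 lower (19.1%). Against starvation EGR3 was at 2.01 (SE 0.29) on the log2 scale at 1 h and −1.36 (SE 0.36, edgeR adjusted p = 0.00317) at 4 h. EGR1 was at 2.83 (SE 0.34) and −0.30 (SE 0.37), and FOSB at 2.02 (SE 0.31) and −0.28 (SE 0.35). FOS was at 1.17 (SE 0.31, edgeR adjusted p = 0.103) and −1.13 (SE 0.35, edgeR adjusted p = 0.0117). At 4 h, EGR3 and FOS thus stood below their starved levels, whereas EGR1 and FOSB did not differ from theirs by the test. IER2 and JUNB were not called at 1 h against starvation (0.26, SE 0.11, and −0.22, SE 0.15) and were lower at 4 h (−1.06, SE 0.12, and −1.15, SE 0.15).

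The 250 bases before the start of EGR1 are printed because SRF is known to act on this gene through CArG boxes, the sequence to which SRF binds. They come from the RefSeq promoter table and lie at chr5:138465229-138465478 on the plus strand of GRCh38.p14. Written 5′ to 3′, the capitals mark the 2 CArG boxes found there, at −105 to −96 and −83 to −74 from the start site.
EGR1: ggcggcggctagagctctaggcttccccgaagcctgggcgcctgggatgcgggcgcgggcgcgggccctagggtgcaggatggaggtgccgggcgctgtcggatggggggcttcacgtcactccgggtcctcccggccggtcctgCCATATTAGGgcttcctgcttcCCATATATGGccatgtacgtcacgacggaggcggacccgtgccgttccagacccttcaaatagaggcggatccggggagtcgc
On both strands, 1.14% of 27305 promoter windows of this length hold a CArG box. The windows of FOS, FOSB, JUNB and EGR2 hold no match, which says only that these letters are not in them. Of 109 tested genes with a match, 22.9% were higher at 4 h and 20.2% lower, against 23.6% and 19.6% of all 11718 tested genes with a promoter window.

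Genes that restrain ERK signalling were called in both directions. Of 13 tested phosphatase and Sprouty family genes, 4 were higher, 4 lower and 5 not called, 30.8% in each direction against 21.7% and 18.1% over all genes. DUSP1, a nuclear phosphatase of MAP kinases, fell by 0.67 on the log2 scale (SE 0.18, edgeR adjusted p = 0.00508). SPRED1 and SPRED2, which block RAF activation, rose by 1.26 (SE 0.20) and 0.94 (SE 0.15), while their relative SPRED3 fell by 1.78 on the log2 scale (SE 0.40). The EGR corepressors NAB1 (0.26, SE 0.12) and NAB2 (−0.16, SE 0.25) were not called, nor was DUSP6 (−0.16, SE 0.61), which was below 3 CPM in every library.

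**Figure D1:**
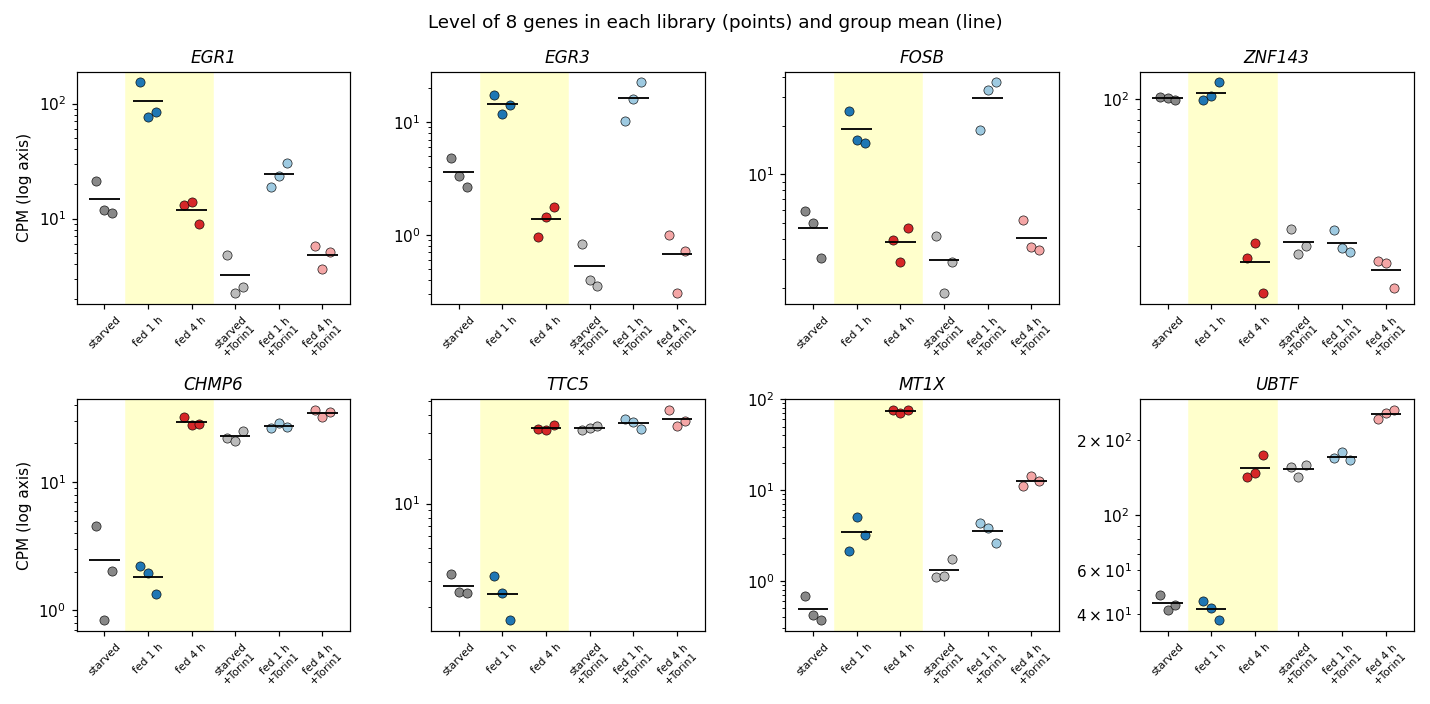
Level of 8 genes in CPM on a log axis in each library (points, 3 per group) with the group mean (line), where the shaded columns are the 2 groups compared. EGR1, EGR3 and FOSB were highest at 1 h of feeding among the cells without Torin1, whereas ZNF143, CHMP6 and TTC5 at 4 h of feeding lay close to their levels in the cells with Torin1.

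ZNF143 (ENSG00000166478) had the largest fall after EGR3 and EGR1 among the named genes. It stood at 99.2, 103 and 120 CPM at 1 h and at 17.6, 20.6 and 11.9 CPM at 4 h, with no overlap, and fell by 2.69 on the log2 scale (SE 0.15, edgeR adjusted p = 6.23e-14). The starved libraries were at 102, 102 and 99.1 CPM, and the 1 h level was not called against starvation (0.09, SE 0.13). All 9 Torin1 libraries lay between 12.7 and 24.2 CPM, in the range of the 4 h libraries or near it. Of the proteins that work with ZNF143, the coactivator HCFC1 (0.28, SE 0.08, edgeR adjusted p = 0.00513) and THAP11 (0.76, SE 0.11, edgeR adjusted p = 8.3e-07) rose, THAP11 from 47.8, 54.3 and 54.6 CPM to 99.7, 83.4 and 82.1 CPM. The call of HCFC1 was lost in the fit of the 6 libraries alone and without 1 h replicate 1. The paralog of ZNF143, ZNF76, was not called (−0.21, SE 0.09, edgeR adjusted p = 0.0606), though it was with DESeq2 size factors, with the DESeq2 Wald test, with a minimum count of 50 and without 4 h replicate 1.

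Of the neighbours of ZNF143 in the RefSeq gene table, 1 rose and 1 fell. IPO7, which carries ribosomal proteins and other cargo into the nucleus, lies before it and went from 213, 224 and 232 CPM to 425, 486 and 414 CPM, a rise of 0.99 (SE 0.07, edgeR adjusted p = 4.81e-12). WEE1, the kinase that holds back mitosis, lies after it and fell by 0.32 (SE 0.09), a call lost without 4 h replicate 3. Strand use in counting is not given, so reads of ZNF143 and of its antisense RNA, which was not tested, cannot be told apart. Beside EGR1, REEP2 was not called (0.10, SE 0.18) and ETF1, a translation release factor, fell by 0.45 on the log2 scale (SE 0.09), and BIN3 beside EGR3 was not called (0.35, SE 0.16).

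CHMP6 (ENSG00000176108) was at 2.20, 1.95 and 1.34 CPM at 1 h and at 32.1, 27.9 and 28.2 CPM at 4 h, a rise of 4.00 on the log2 scale (SE 0.27, edgeR adjusted p = 5.15e-11). The starved libraries were at 4.57, 0.836 and 2.02 CPM and the Torin1 libraries at 21.1 to 36.7 CPM, so low levels were confined to the starved and 1 h fed cells without Torin1 among these 18 libraries. Of the 12 ESCRT-III genes tested, CHMP6 included, 4 were higher, 4 lower and 4 not called, with a median of −0.14. That is 33.3% in each direction, against 21.7% higher and 18.1% lower over all genes. CHMP5 fell by 0.59 on the log2 scale (SE 0.10) and CHMP3 by 0.44 (SE 0.09), both lower in every 4 h library than in any 1 h library. CHMP2A rose by 0.36 (SE 0.11), CHMP4A by 0.30 (SE 0.12) and CHMP4B by 0.24 (SE 0.09). These 3 and CHMP1B (−0.33, SE 0.12) lost their calls when certain single libraries were left out, CHMP2A without 4 h replicate 1, CHMP1B without replicate 3 of either time, CHMP4A without any library but 1 h replicate 1, and CHMP4B without any but 4 h replicate 2. With DESeq2 size factors the split was 2 higher and 6 lower.

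Of 18 other ESCRT genes, 5 were higher (27.8%) and 3 lower (16.7%), shares near those over all genes (21.7% and 18.1%). STAM, which hands ubiquitinated cargo to the pathway, rose by 1.14 (SE 0.15), VPS25 of ESCRT-II by 0.81 (SE 0.09), and the ATPase VPS4A, which takes ESCRT-III apart, by 0.72 (SE 0.10). Its near relative VPS4B fell by 0.51 on the log2 scale (SE 0.10). VPS4A went from 54.0, 62.3 and 60.7 CPM to 94.6, 84.6 and 112 CPM, and VPS4B from 52.1, 51.9 and 58.6 CPM to 33.2, 41.1 and 40.3 CPM.

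Besides CHMP6 and the metallothioneins, the largest rises were in genes of unlike function. They were taken from called genes averaging 5 CPM or more in the 6 libraries whose groups were fully apart. TTC5, a cofactor of p300 that also takes part in the control of tubulin mRNA, went from 3.21, 2.46 and 1.61 CPM to 31.9, 31.6 and 34.0 CPM, a rise of 3.74 (SE 0.17, edgeR adjusted p = 8.45e-17). TUBGCP3, a subunit of the γ-tubulin complex that seeds microtubules, went from 5.69, 4.32 and 5.45 CPM to 45.3, 54.7 and 55.2 CPM (3.33, SE 0.14, edgeR adjusted p = 5.57e-17). SNPH, which anchors mitochondria to microtubules, went from 0.643, 2.03 and 1.61 CPM to 15.7, 18.2 and 16.5 CPM (3.53, SE 0.28). In these genes the lowest 4 h library lay several times above the highest 1 h library. They were picked for large rises without overlap, so that gap was partly set by the choice.

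TTC26, a ciliary transport gene, rose by 2.90 (SE 0.18), the zinc finger gene ZNF569 by 2.88 (SE 0.24), and ACSF3 and TACO1, which serve mitochondrial fatty acid synthesis and the translation of a cytochrome oxidase subunit, by 2.79 each (SE 0.18 and 0.14). None of TTC5, TUBGCP3, SNPH, TTC26, ZNF569, ACSF3 and TACO1 was called at 1 h against starvation, where their log2 fold changes lay between −0.46 (SE 0.22, TTC26) and 0.03 (SE 0.16, TACO1). With Torin1 their levels lay above or below the untreated 4 h level, depending on the gene. TTC5 stood at 35 and 37.7 CPM (means of 1 h and 4 h fed cells with Torin1) against 32.5 CPM in 4 h fed cells, and SNPH at 6.87 and 8.43 CPM against 16.8 CPM.

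The largest falls outside the early genes included heat shock and signalling genes. PLEKHH3 went from 126, 131 and 134 CPM to 30.03, 27 and 27.1 CPM, a fall by 2.22 on the log2 scale (SE 0.10, edgeR adjusted p = 6.07e-17). DNAJB1, an HSP40 cochaperone of HSP70, went from 321, 352 and 474 CPM to 93.8, 85.5 and 80.9 CPM (−2.14, SE 0.13, edgeR adjusted p = 2.08e-11). CDKN2D, an inhibitor of CDK4 and CDK6, went from 32.7, 32.4 and 35.2 CPM to 11.5, 6.24 and 4.59 CPM (−2.16, SE 0.24). These falls were taken, like the rises, from called genes whose groups were fully apart, so the lack of overlap was set by that choice. SPOCK2, a proteoglycan of the extracellular matrix, fell by 2.42 on the log2 scale (SE 0.28), the kinase gene MAK by 2.28 (SE 0.26), the RNA OSER1-DT by 2.11 (SE 0.23) and VAV3, an exchange factor for small GTPases, by 2.04 (SE 0.29). As with the rises, PLEKHH3, DNAJB1, CDKN2D, SPOCK2, MAK, OSER1-DT and VAV3 were not called at 1 h against starvation, with log2 fold changes of −0.46 (SE 0.21, CDKN2D) to 0.16 (SE 0.25, VAV3).

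Metallothioneins are small proteins that bind zinc and copper and are induced by the zinc sensor MTF1. MT1X (ENSG00000187193) was at 2.11, 5.0 and 3.22 CPM at 1 h and at 76.2, 69.96 and 76.7 CPM at 4 h, a rise of 4.42 (SE 0.20, edgeR adjusted p = 8.45e-17), the highest of the named genes. Against starvation it was already higher at 1 h (2.82, SE 0.36, edgeR adjusted p = 4.41e-05), whereas MT2A (0.41, SE 0.19) and MT1F (1.00, SE 0.58) were not called there. MT2A went from 8.17, 7.12 and 5.99 CPM to 95.1, 90.3 and 82.6 CPM (3.65, SE 0.16), and MT1F from 1.29, 0.508 and 0.447 CPM to 10.9, 10.9 and 9.84 CPM (3.81, SE 0.39). The 3 genes did not overlap between times, though reads of such near-identical genes may be split between them in counting. All 8 tested genes of the metallothionein and zinc list were called, 4 in each direction, whereas 39.8% of all genes were called, 21.7% higher and 18.1% lower. The fourth higher gene was the zinc exporter SLC30A1. MTF1 itself fell by 0.74 on the log2 scale (SE 0.14), and so did the zinc importers SLC39A10, by 1.53 (SE 0.17), and SLC39A6, by 0.67 (SE 0.09), and SLC39A14.

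The promoter window of MT1X is printed because MTF1 is known to act on metallothionein genes through metal response elements. It lies at chr16:56682220-56682469 on the plus strand of GRCh38.p14, is credited to RefSeq and is written 5′ to 3′. Capitals mark the 4 matches to TGCACNC or TGCGCNC, 1 of them on the opposite strand.
MT1X: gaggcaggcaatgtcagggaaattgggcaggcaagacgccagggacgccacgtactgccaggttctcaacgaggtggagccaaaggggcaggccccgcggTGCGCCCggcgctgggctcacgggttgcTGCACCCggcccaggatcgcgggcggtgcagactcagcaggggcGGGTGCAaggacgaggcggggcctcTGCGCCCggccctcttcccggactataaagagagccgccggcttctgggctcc
The window of MT2A holds 7 such matches. Either form is common, found in 24.7% of all promoter windows, and of the 3935 tested genes that have one, 24.6% were higher and 19.3% lower.

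The machinery that makes ribosomes and tRNA changed in part. Of 17 genes for RNA polymerase III and its factors, which transcribe tRNA and 5S rRNA, 12 were higher (70.6%), 3 lower (17.6%) and 2 not called. Over all genes 21.7% were higher and 18.1% lower. The median of the 17 was 0.43, against −0.00 over all genes. POLR3F went from 10.6, 8.47 and 8.93 CPM to 31.2, 35 and 32.5 CPM (1.82, SE 0.15, edgeR adjusted p = 3.66e-11), and GTF3C3 of the TFIIIC complex rose by 1.33 (SE 0.10). The repressor MAF1 was among the 12 as well. POLR3D fell by 0.60 on the log2 scale (SE 0.09), and 2 other lower subunits, POLR3A and POLR3K, lost their calls without single libraries (POLR3A without 1 h replicate 3 or 4 h replicate 1 or 3 and in the fit of the 6 libraries alone, POLR3K without 1 h replicate 2 or 4 h replicate 2 or 3).

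UBTF, which holds ribosomal DNA open for RNA polymerase I, went from 45.2, 42.5 and 37.8 CPM to 142, 147 and 173 CPM, a rise of 1.88 (SE 0.09, edgeR adjusted p = 2e-16). In the 15 genes of RNA polymerase I and its factors 3 were higher (20%) and 5 lower (33.3%), against 21.7% and 18.1% over all genes. The lower ones included TAF1A of the promoter selectivity factor SL1 (−1.07, SE 0.15). For ribosome assembly the counts were 14 higher (33.3%) and 6 lower (14.3%) among 42 genes. WDR75, of the small subunit processome, went from 26.9, 19.7 and 24.4 CPM to 100, 102 and 98.2 CPM (2.08, SE 0.10, edgeR adjusted p = 1.28e-16). PES1 rose by 1.69 (SE 0.11) and MRTO4 by 1.42 (SE 0.09), both of the large subunit, while the helicase DDX21 fell by 0.56 on the log2 scale (SE 0.09) and WDR3 by 0.44 (SE 0.08).

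Of 77 cytosolic ribosomal protein genes 8 were lower (10.4%, against 18.1% over all genes), 1 higher and 68 not called, with a median of −0.10. The count of lower genes was 0 without 1 h replicate 1 and in the fit of the 6 libraries alone, 1 without 4 h replicate 3, 13 without 1 h replicate 2, 17 without 4 h replicate 1 and 18 without 1 h replicate 3. The higher gene was RPS26, at 177, 179 and 175 CPM and then at 244, 246 and 242 CPM (0.46, SE 0.07, edgeR adjusted p = 2.73e-06), whose many pseudogenes leave its counting uncertain. Host genes of small nucleolar RNAs, which share the mRNA control of ribosomal protein genes, were lower in 7 of 14 cases, with GAS5 at −0.51 (SE 0.08) and SNHG15 at −0.67 (SE 0.10). Of 20 tRNA synthetase genes 6 rose (30%) and 5 fell (25%), against 21.7% and 18.1% over all genes. Methionyl-tRNA synthetase MARS1 went from 101, 106 and 83.3 CPM to 204, 225 and 257 CPM (1.24, SE 0.09, edgeR adjusted p = 2.68e-12), VARS1 rose by 1.15 (SE 0.15), and SARS1 fell by 0.35 on the log2 scale (SE 0.08).

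**Figure D2:**
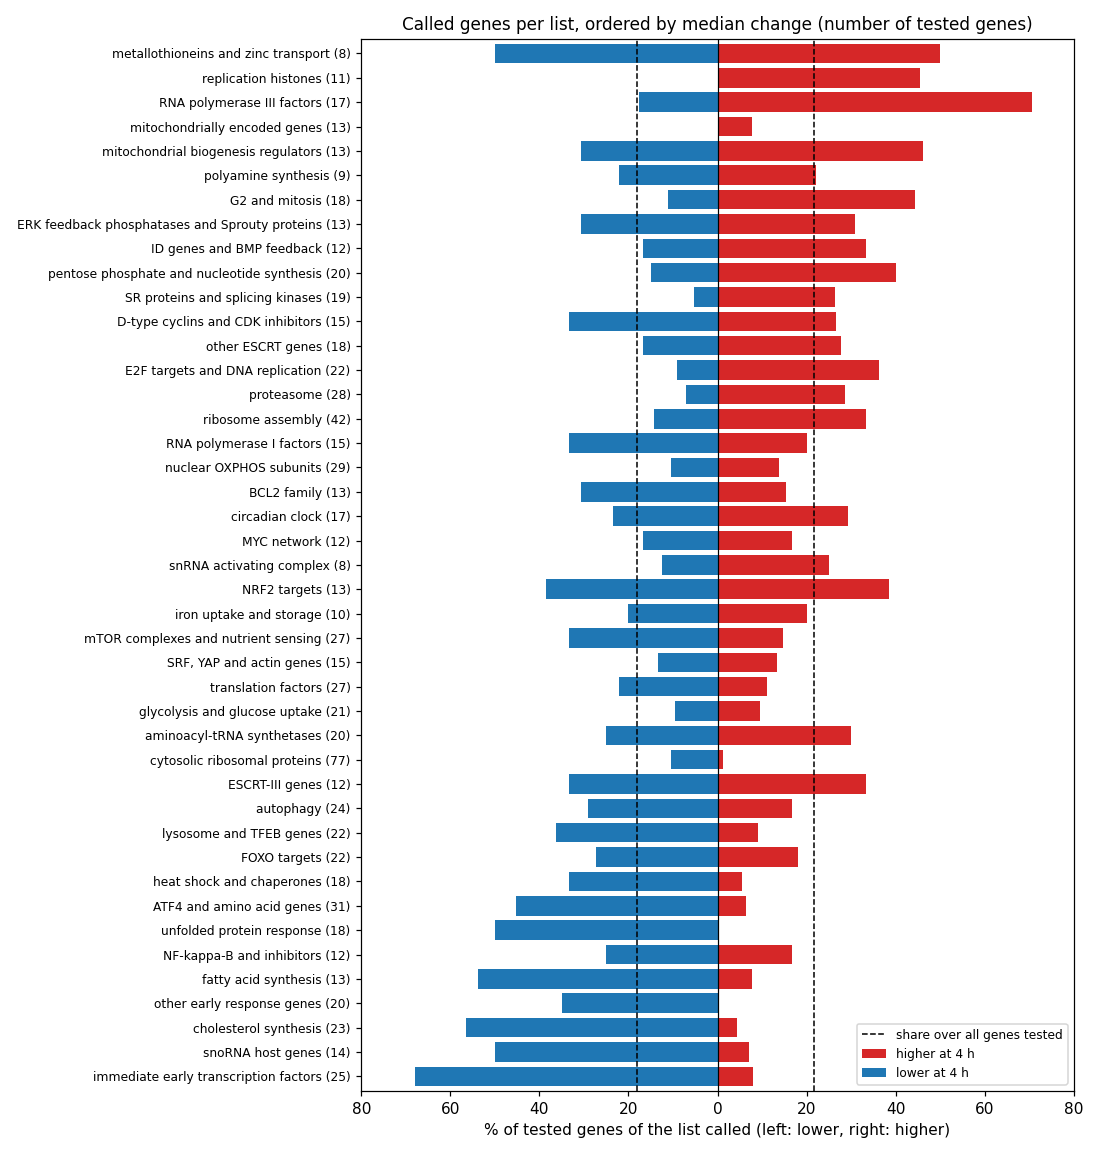
Share of the tested genes of each list that were called lower (left, blue) or higher (right, red) at 4 h, for the 43 lists other than cell type markers with at least 8 tested genes, ordered by the median log2 fold change, with the number of tested genes in parentheses. Dashed lines mark the shares over all genes tested, 18.1% and 21.7%. Immediate early genes, at the bottom, were lower in 68.0% of cases and RNA polymerase III factors were higher in 70.6%.

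Lipid synthesis genes fell on balance. Of 23 cholesterol synthesis genes and regulators, 13 were lower (56.5%, against 18.1% over all genes), 1 higher (4.35%, against 21.7%) and 9 not called. Their median was −0.37, and the higher gene was PMVK (0.74). HMGCS1, an early enzyme of the pathway, went from 261, 226 and 263 CPM to 109, 115 and 90.4 CPM (−1.25, SE 0.14, edgeR adjusted p = 6.83e-07). MSMO1, a sterol demethylase, went from 128, 120 and 126 CPM to 48.0, 50.1 and 50.5 CPM (−1.33, SE 0.14), and INSIG1, which holds SREBP in the endoplasmic reticulum, from 391, 336 and 320 CPM to 158, 170 and 180 CPM (−1.04, SE 0.21). Of 13 fatty acid synthesis genes 7 were lower (53.8%) and 1 higher (7.69%), against the same shares over all genes. The lower ones included ELOVL5 (−0.65, SE 0.09) and ACSL3 (−0.45, SE 0.10). The exception was SREBF1, the gene of the SREBP-1 factor, which rose by 0.69 (SE 0.12) from 46.4, 58.1 and 48.2 CPM to 80.9, 72.1 and 94.0 CPM.

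Nucleotide synthesis genes went the other way in 8 of 20 cases (40%), with 3 lower (15%), against 21.7% and 18.1% over all genes. CAD, which starts pyrimidine synthesis, rose by 0.89 (SE 0.13), CTPS1, which makes CTP, by 0.70 (SE 0.08), and ATIC, of purine synthesis, by 0.42 (SE 0.07). The purine genes PPAT and PAICS fell by 0.31 (SE 0.09) and 0.29 (SE 0.08), the latter call being lost without 4 h replicate 3. Of 21 glycolysis and glucose uptake genes 17 were not called. Hexokinase HK2 fell by 0.65 (SE 0.09) and PFKL, a phosphofructokinase, rose by 0.79 (SE 0.13). Among targets of the glucose-sensing factor MLX, the arrestin ARRDC4 went from 146, 116 and 138 CPM to 38.3, 45.9 and 35.7 CPM (−1.74, SE 0.11, edgeR adjusted p = 1.31e-13). Its relative TXNIP, at 19.2, 13.5 and 15.1 CPM and then at 19.7, 22.0 and 15.8 CPM, was not called (0.27, SE 0.16, edgeR adjusted p = 0.199).

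Regulators of mitochondrial biogenesis were called in both directions, 6 higher (46.2%) and 4 lower (30.8%) of 13, against 21.7% and 18.1% over all genes. GABPB1, a subunit of the factor NRF2/GABP, rose by 1.96 (SE 0.16), PPRC1, a coactivator induced by serum, by 1.10 (SE 0.08), and TFAM, which packs mitochondrial DNA, by 0.58 (SE 0.09). ESRRA fell by 0.94 on the log2 scale (SE 0.12). Of the 13 mitochondrially encoded genes 12 were not called. Their median was 0.23, and the exception, MT-ATP8 (0.62, SE 0.20), lost its call without 1 h replicate 2 or 4 h replicate 3. TFRC, the receptor that takes up iron, went from 612, 635 and 619 CPM to 263, 289 and 255 CPM (−1.21, SE 0.13, edgeR adjusted p = 2.14e-07), and the iron exporter SLC40A1 rose by 1.99 (SE 0.37) from 1.19, 1.44 and 0.447 CPM to 4.46, 4.80 and 3.09 CPM.

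Stress genes fell more often than they rose. In the unfolded protein response list 9 of 18 were lower (50%, against 18.1% over all genes) and 0 higher (against 21.7% over all genes). XBP1, its transcription factor, went from 300.5, 282 and 284 CPM to 152, 164 and 136 CPM (−0.94, SE 0.09, edgeR adjusted p = 7.34e-10), HERPUD1 fell by 1.2 on the log2 scale (SE 0.10) and the chaperone HSPA5 by 0.35 (SE 0.08). Of 31 genes of ATF4 and amino acid supply, 14 were lower (45.2%) and 2 higher (6.45%), against the same shares over all genes. The lower ones included TRIB3 at −1.15 (SE 0.13), STC2 at −0.83 (SE 0.08) and the cystine transporter SLC7A11 at −0.88 (SE 0.14). The higher ones were ATF5 and VLDLR, and VLDLR lost its call in 11 of 15 alternatives. ATF5 rose by 1.25 (SE 0.18), while asparagine synthetase ASNS (−0.18, SE 0.09, edgeR adjusted p = 0.108) and the leucine transporter SLC7A5 (−0.05, SE 0.09) were not called.

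Of 18 heat shock and chaperone genes 6 were lower (33.3%) and 1 higher (5.56%), against 18.1% and 21.7% over all genes. HSPA1B, an inducible HSP70 gene nearly identical to HSPA1A, went from 1450.4, 2422 and 2555 CPM to 487, 473 and 693 CPM (−1.96, SE 0.22, edgeR adjusted p = 1.04e-05). BAG3, a cochaperone, went from 137, 145 and 215 CPM to 69.9, 53.7 and 56.8 CPM (−1.46, SE 0.15), and FKBP4, a partner of HSP90, rose by 0.33 (SE 0.07). The NRF2 list of antioxidant genes was even, 5 higher and 5 lower of 13 (38.5% each). The glutathione synthesis genes GCLC (0.91, SE 0.09) and GCLM (0.75, SE 0.11) rose and TXNRD1 fell by 0.64 on the log2 scale (SE 0.07).

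Among genes of growth control, FOXO targets, which are active when insulin signalling is low, numbered 22. Of these 6 were lower (27.3%) and 4 higher (18.2%), against 18.1% and 21.7% over all genes. CCNG2 went from 53.7, 56.3 and 57.8 CPM to 23.0, 23.3 and 24.7 CPM (−1.24, SE 0.10, edgeR adjusted p = 2.78e-11), and HBP1 fell by 1.23 on the log2 scale (SE 0.14). IRS1, INSR and CDKN1B rose by 1.24 (SE 0.26), 0.51 (SE 0.13) and 0.51 (SE 0.11). Of 27 genes of the mTOR complexes and nutrient sensing 9 were lower (33.3%) and 4 higher (14.8%), against the same shares over all genes. RPTOR, the substrate-binding subunit of mTOR complex 1, went from 36.4, 36.9 and 31.5 CPM to 59.9, 65.6 and 75.4 CPM (0.94, SE 0.11, edgeR adjusted p = 5.61e-08). DEPDC5, of the GATOR1 complex that inhibits it, fell by 1.13 on the log2 scale (SE 0.12), TSC1 by 0.64 (SE 0.11) and AKT1S1 by 0.56 (SE 0.10). In the lysosome and TFEB list 8 of 22 were lower (36.4%) and 2 higher (9.09%), and MITF rose by 1.99 (SE 0.23).

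Cell cycle lists are read against the shares over all genes, 21.7% higher and 18.1% lower. Of 18 genes of G2 and mitosis, 8 were higher (44.4%) and 2 lower (11.1%), both of which, CENPE and HMMR, overlapped between times and lost their calls without single libraries (1 h replicate 3 or 4 h replicate 1 for both, and also 1 h replicate 1 or 4 h replicate 3 for HMMR, which lost its call too in the fit of the 6 libraries alone). BIRC5, the survivin gene, went from 103, 93.9 and 71.9 CPM to 249.9, 221 and 227 CPM (1.38, SE 0.10, edgeR adjusted p = 2.12e-12), the kinesin KIF11 rose by 1.02 (SE 0.09) and the kinase PLK1 by 0.97 (SE 0.08). Of 22 DNA replication genes 8 were higher, including UHRF1 (0.70, SE 0.09) and MCM5 (0.60, SE 0.08), and 2 lower, including CDT1 (−0.54, SE 0.09), which licenses origins. In a list of 15 genes, mainly D-type cyclins and CDK inhibitors, 4 were higher (26.7%) and 5 lower (33.3%). These calls include CCNE2, higher, and CDK4 and RB1, lower, which belong to neither class. Cyclin D3 (CCND3) rose by 0.81 (SE 0.11), CCND1 was not called (0.10, SE 0.10), and CDKN1C fell by 1.64 on the log2 scale (SE 0.26). Replication histone genes, whose copies are alike, counted 5 higher and 0 lower among 11.

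Of 17 circadian clock genes 5 were higher (29.4%) and 4 lower (23.5%), against 21.7% and 18.1% over all genes. NR1D1, a repressor of BMAL1, went from 6.24, 3.3 and 4.11 CPM to 12.3, 13.7 and 11.6 CPM (1.46, SE 0.26, edgeR adjusted p = 3.93e-05), and PER2 rose by 1.22 (SE 0.18), while PER1, which serum can induce within the hour, was not called (−0.09, SE 0.10). CLOCK fell by 0.88 on the log2 scale (SE 0.12). In the NF-κB list RELB (−1.41, SE 0.21), NFKB2 (−0.76, SE 0.11) and REL (−0.53, SE 0.14) fell and RELA rose by 0.29 (SE 0.08). Of 12 ID and BMP feedback genes 4 were higher (33.3%) and 2 lower (16.7%), against 21.7% and 18.1% over all genes. ID3, SMAD6 and SMAD7, targets of BMP signalling, rose by 0.74 (SE 0.13), 0.73 (SE 0.16) and 0.87 (SE 0.15), and ID1 was not called (0.43, SE 0.19, edgeR adjusted p = 0.0641). ID4 fell by 0.47 on the log2 scale (SE 0.11) and SMURF1, a ubiquitin ligase of the pathway, by 0.67 (SE 0.11). The proapoptotic gene BID rose by 1.30 (SE 0.12), and BBC3 fell by 0.95 on the log2 scale (SE 0.19).

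Among 28 genes of the proteasome list 8 were higher (28.6%, against 21.7% over all genes) and 2 lower (7.14%, against 18.1%). The lower ones were PSMC1 and NFE2L1, the latter not a proteasome subunit. PSMD3 was at 65.2, 70.4 and 57.4 CPM and then at 196, 153 and 187 CPM (1.48, SE 0.09, edgeR adjusted p = 1.18e-13). Genes whose symbol starts with ZNF, most of them zinc finger genes, were counted after their values were seen. Of 475 tested, 185 were higher (38.9%) and 65 lower (13.7%), a median of 0.33 against −0.00 over all genes.

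The promoter windows were searched on both strands for its site and for other promoter motifs, 16 in all, chosen after values of these data were seen. The motifs were searched one by one, so a base may belong to more than 1. The core of the site that ZNF143 binds, spelled ACTACA, any 2 bases, then TCCCA, was in 381 of 27305 windows (1.40%). Of 330 tested genes with this site 164 were higher at 4 h (49.7%) and 43 lower (13%), with a median log2 fold change of 0.34. Over all 11718 tested genes with a promoter window these shares were 23.6% and 19.6%, with a median of −0.00. The count of higher genes with the site ran from 141 to 167 over the alternatives. The share was 49.5% in the 281 genes with the site whose symbol does not start with ZNF, against 22.4% of the 11038 such genes without it. A match is a description of the letters and not a site shown to be bound.

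Windows of 20 bases on either side of the site, cut at the start of the gene, are given for 3 of the 5 genes with the site that rose most, to show the match in place. They are from RefSeq on GRCh38.p14, written 5′ to 3′ on the strand of the gene, with the matched letters in capitals. ZNF569 lies at chr19:37467445-37467482 on the minus strand, with the match read on the opposite strand, MRPS26 at chr20:3045967-3046019 on the plus strand and LUC7L at chr16:229483-229535 on the minus strand.
ZNF569: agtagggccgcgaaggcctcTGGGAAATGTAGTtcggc
MRPS26: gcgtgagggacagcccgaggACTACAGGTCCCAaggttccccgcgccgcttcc
LUC7L: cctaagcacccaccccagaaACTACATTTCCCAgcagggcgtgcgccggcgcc
MRPS26, of the mitochondrial ribosome, went from 18.9, 17.3 and 11.6 CPM to 113, 80.7 and 101 CPM (2.62, SE 0.15, edgeR adjusted p = 2.82e-13). LUC7L, a splicing factor of the U1 particle, went from 21.6, 31.0 and 25.7 CPM to 131, 119 and 139 CPM (2.31, SE 0.14, edgeR adjusted p = 3.5e-12). ZNF569 went from 2.02, 1.02 and 1.61 CPM to 11.6, 13.1 and 9.46 CPM. These genes were picked for their rise among called genes whose groups were fully apart, so the lack of overlap was set by that choice.

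A palindrome spelled TCTCG followed by its reverse complement was found in 0.410% of windows. Of 90 tested genes with it 42 were lower (46.7%) and 3 higher (3.33%), with a median of −0.27. Genes with the cAMP response element TGACGTCA numbered 345, of which 33.6% were lower and 12.2% higher, and those with the NRF1 site, GCGCA followed by its reverse complement, lower in 31.2% of 221 cases and higher in 9.95%. With DESeq2 size factors the palindrome genes split 48 lower to 1 higher. Among genes with other motifs, such as the EGR site GCGTGGGCG (26.9% higher and 16.6% lower of 145) and the E-box CACGTG (19.5% and 24.5% of 1034), the shares lay closer to those over all promoters. Windows of 2 of the 5 palindrome genes that fell most follow, to show the palindrome in place, SCAMP5 at chr15:74995460-74995509 on the plus strand and CCNC at chr6:99568832-99568881 on the minus strand, with the palindrome in capitals.
SCAMP5: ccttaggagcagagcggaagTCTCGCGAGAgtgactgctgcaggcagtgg
CCNC: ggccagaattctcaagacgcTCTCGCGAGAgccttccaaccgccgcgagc
CCNC, cyclin C of the Mediator kinase module, went from 156, 137 and 156 CPM to 89.4, 98.3 and 74.0 CPM (−0.78, SE 0.09, edgeR adjusted p = 1.94e-08). SCAMP5, a secretory carrier protein, went from 42.0, 35.3 and 34.1 CPM to 21.1, 19.96 and 18.8 CPM (−0.90, SE 0.12, edgeR adjusted p = 5.63e-07).

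**Figure D3:**
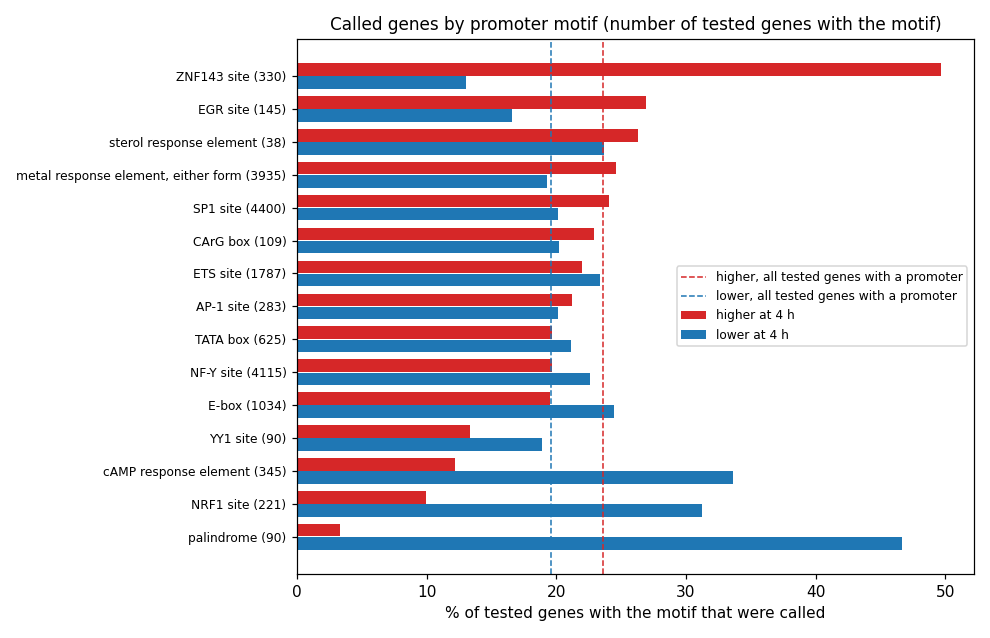
Share of tested genes called higher (red) or lower (blue) at 4 h among those whose promoter window holds each motif, with the number of such genes in parentheses and dashed lines for all tested genes with a window (23.6% and 19.6%). Genes with the ZNF143 site were higher in 49.7% of cases, and genes with the palindrome were lower in 46.7%.

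Across all 18 libraries, the median level of the 330 genes with the ZNF143 site, on a log2 scale of CPM plus 1 centred on each gene's mean, was between −0.29 and −0.18 in the 6 libraries of starved and 1 h fed cells without Torin1. It was 0.17 to 0.20 in the 4 h fed libraries and 0.09 to 0.15 in the 9 libraries with Torin1. For the 90 palindrome genes it was 0.27 to 0.45 in starved and 1 h fed cells, 0.04 to 0.13 at 4 h and −0.30 to −0.15 with Torin1. Over all genes tested it stayed within −0.04 and 0.03. The 1 h fed libraries thus lay with the starved ones, and the 4 h fed libraries apart from both, in either set.

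**Figure D4:**
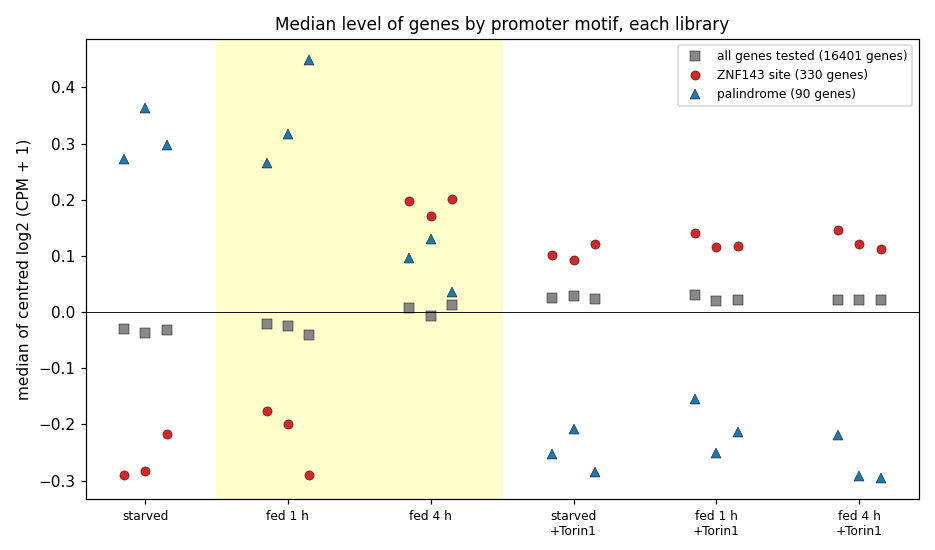
Median of log2 (CPM + 1), centred on each gene's mean over 18 libraries, for genes with the ZNF143 site (circles), genes with the palindrome (triangles) and all genes tested (squares), 1 point per library, where the shaded columns are the groups compared. The ZNF143 site genes rise from at most −0.18 at 1 h to at least 0.17 at 4 h of feeding, and the palindrome genes are lowest in the cells with Torin1.

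The same interval in cells with Torin1, which shares no library with the untreated one, called 241 genes (1.47%), 94 higher (0.573%) and 147 lower (0.896%). With scaling by total counts the split was 115 higher and 73 lower. The 3565 genes that rose without Torin1 had a median log2 fold change of 0.00 with it, and the 2975 that fell had a median of −0.09. In the test of the difference between the 2 changes, 3950 genes were called (24.1%), 2550 with a more positive change without Torin1 (15.5%) and 1400 with a more negative one (8.53%). Of the 3565 risers 67.1% were among them, and of the 2975 fallers 42.8%. Both sets were picked on the untreated change, which is part of the tested difference, so these shares are partly set by that choice.

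EGR3, EGR1 and FOSB fell in both settings, while FOS was not called with Torin1 (−1.17, edgeR adjusted p = 0.0941). With Torin1 EGR3 went from 10.3, 15.9 and 22.4 CPM to 0.997, 0.305 and 0.728 CPM (−4.55, SE 0.35, edgeR adjusted p = 8.17e-10), and EGR1 from 19.0, 23.5 and 30.4 CPM to 5.77, 3.66 and 5.17 CPM (−2.32, SE 0.38, edgeR adjusted p = 0.00902). The differences between the settings were not called for EGR3, EGR1, FOSB and FOS. The difference was 1.19 for EGR3 (SE 0.52, edgeR adjusted p = 0.0979), though it was called without replicate 1 of the 1 h fed cells with Torin1 (1.43, edgeR adjusted p = 0.0346), and −0.81 for EGR1 (SE 0.52, edgeR adjusted p = 0.303), with errors too large to show that they fell alike. IER2 and JUNB fell less with Torin1, by differences of −0.86 (SE 0.16, edgeR adjusted p = 0.00022) and −0.62 (SE 0.23, edgeR adjusted p = 0.0445).

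CHMP6, ZNF143, TTC5 and TUBGCP3 did differ. CHMP6 went from 26.3, 28.7 and 26.8 CPM at 1 h to 36.7, 32.4 and 35.2 CPM at 4 h with Torin1 and was not called (0.35, SE 0.19), a difference of 3.65 from the untreated change (SE 0.34, edgeR adjusted p = 2.62e-08). ZNF143 was not called with Torin1 (−0.42, SE 0.15, edgeR adjusted p = 0.182), a difference of −2.27 (SE 0.21, edgeR adjusted p = 4.91e-09). TTC5 and TUBGCP3 differed by 3.63 (SE 0.22) and 3.38 (SE 0.19). In these 4 genes the 1 h level with Torin1 was already at or near the level that untreated cells had at 4 h. MT1X rose in both, by 1.83 with Torin1 (SE 0.21, edgeR adjusted p = 1.21e-06), to 11.2, 14.3 and 12.4 CPM. TFRC fell in both, by 0.97 on the log2 scale with Torin1 (SE 0.13), and the difference was not called (edgeR adjusted p = 0.39). Genes with the ZNF143 site were higher in 0 and lower in 2 of 330 cases with Torin1 by edgeR. Over all 11718 tested genes with a promoter window, 73 were higher and 103 lower with Torin1, so few genes of any kind were called.

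**Figure D5:**
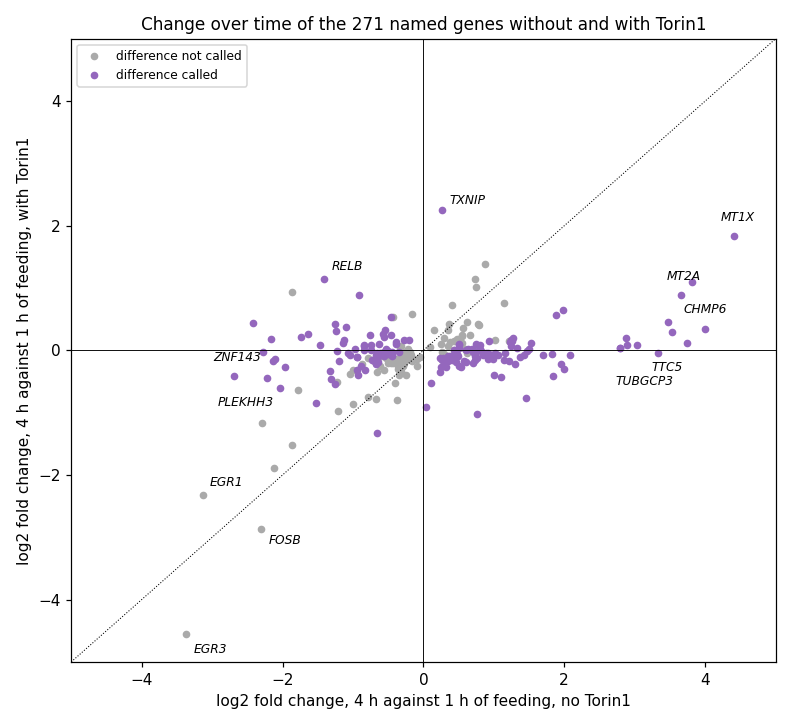
Log2 fold change from 1 h to 4 h of feeding without Torin1 (x axis) and with Torin1 (y axis) for the 271 named genes, purple where the difference between the 2 was called by edgeR, with a dotted line of equal change. EGR1, EGR3 and FOSB lie at the lower left, with EGR3 below the dotted line and EGR1 above it. ZNF143, PLEKHH3, TTC5, TUBGCP3 and CHMP6 lie near 0 on the y axis.

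The isoform table, a separate estimate from the same reads, gives the transcripts behind the main genes and is described with no test. CHMP6-201 was at 2.20, 1.31 and 1.28 CPM at 1 h and at 30.6, 26.6 and 26.0 CPM at 4 h, close to the gene's whole level. ZNF143-203 went from 58.9, 57.6 and 58.8 CPM to 12.5, 12.3 and 2.18 CPM, ZNF143-213 from 26.1, 27.4 and 37.5 CPM to 2.92, 4.16 and 1.05 CPM, and the retained intron form ZNF143-215 from 6.14, 8.18 and 8.26 CPM to 0.751, 0.739 and 2.35 CPM. All of them were lower in each 4 h library than in any 1 h library. UBTF-203 was estimated at 0 in the 3 libraries at 1 h and at 29.9, 29.9 and 36.7 CPM at 4 h, and UBTF-205 at 13.9, 10.7 and 4.34 CPM at 1 h and at 0 in the 3 libraries at 4 h. A 0 there can be a failed split of reads between like transcripts. TTC5 rose in its coding form TTC5-201 (1.10, 0.654 and 0.766 CPM to 12.8, 15 and 15.4 CPM) and in TTC5-202, annotated as subject to nonsense-mediated decay (1.65, 0.899 and 0.341 CPM to 14.6, 10.3 and 13 CPM).

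The 11 markers of HeLa and other carcinoma epithelial cells summed to 13.8 to 19.5 CPM at 1 h and 9.31 to 11.4 CPM at 4 h, with no overlap. CDH1, the E-cadherin gene, made up most of it, at 14, 11.4 and 9.56 CPM and then at 7.53, 5.85 and 6.75 CPM, and fell by 0.79 on the log2 scale (SE 0.20, edgeR adjusted p = 0.00156). KRT7 and CEACAM5 were at 0 in all 6 libraries. The 7 fibroblast markers summed to 10.2 to 30.4 CPM at 1 h and 8.84 to 15.6 CPM at 4 h. The highest sum was that of 1 h replicate 2, in which COL1A2, COL3A1 and DCN were at 4.75, 5.51 and 1.27 CPM, against at most 0.275, 0.459 and 0 CPM in the other two 1 h libraries, and COL1A2 and DCN were at 0 in every 4 h library. Immune markers summed to 3.04 to 3.98 CPM at 1 h and 1.58 to 2.81 CPM at 4 h, with PTPRC and CD3E at 0 in all 6 libraries and CD14 and HLA-DRA at most at 1.61 and 1.44 CPM. Both were called lower at 4 h (−1.86 each), calls lost without 1 h replicate 2 and several other single libraries. The part of such RNA in the results was not tested. ZNF143, CHMP6, EGR1 and EGR3 kept their calls without 1 h replicate 2, as in every other alternative, which says nothing of other genes or libraries. Retained intron transcripts held 3.25% to 3.76% of isoform counts at 1 h and 3.27% to 3.96% at 4 h.

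Several counts of list members rested on single libraries. Without 4 h replicate 3 the lower tRNA synthetase genes numbered 1, the lower ribosome assembly genes 3, the lower RNA polymerase III genes 1, the lower NRF2 target genes 2 and the lower nucleotide synthesis genes 1. Ribosome assembly also counted 3 lower genes without 1 h replicate 2 or 3, and 2 in the fit of the 6 libraries alone, where the lower synthetase genes numbered 1. The lower synthetase genes were 3 without 1 h replicate 3 and 8 without 4 h replicate 2, and the lower fatty acid genes were 4 without 1 h replicate 2 or 4 h replicate 1. Without 1 h replicate 3 the higher replication histones numbered 3, the higher ERK feedback genes 2 and the higher heat shock genes 4.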

How the data were processed

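RNA-seq libraries from 18 samples of 1 cell line were used. Per the labels' protocols, reads were aligned with STAR in 2 passes, and per the submitters' processing notes RSEM and DESeq2 were among the tools, with no versions. The authors deposited expected counts per gene and, in another table, per isoform, with no normalization. The labels name a worm genome build although the identifiers are human Ensembl identifiers, so no coordinates were taken from the annotation; promoters come from RefSeq (GRCh38.p14). Counts were rounded (3.32% of values were not whole). The 6 libraries compared held 11071924 to 12450245 counts.

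Genes were filtered with filterByExpr (minimum count 10), and TMM-scaled. A model with 1 mean for each of the 6 groups, over all 18 libraries, was tested by the robust quasi-likelihood F test of edgeR 4.0.16 (R 4.3.3). Genes were called at a Benjamini-Hochberg adjusted p under 0.05 over 16414 genes. Standard errors were taken from the fold change and its F value. The principal components and the correlations between same-numbered libraries used log2 CPM with a prior count of 2. Alternatives used limma 3.58.1 and DESeq2 1.42.0. The edgeR test of 4 h against 1 h of feeding without Torin1 was checked on simulated counts. The other contrasts, the test of the difference between settings and the alternatives were not. A planned test of isoform use was left out, since on simulated counts it called more unchanged than changed genes. Named genes were EGR1, EGR3, CHMP6 and ZNF143, the 12 highest and 12 lowest called genes of at least 5 CPM without overlap, the 3 called members of each list with the smallest p in each direction, fixed further genes, neighbours, and the genes with the largest difference between cells without and with Torin1. Some genes that this rule names are not reported here. The members and lists were chosen with earlier results of these data known.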

Additional observations from a re-analysis of the deposited data

Results flagged for a closer look

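In 3950 genes the change from 1 h to 4 h of feeding differed between cells without and with Torin1, by an edgeR test of that difference. Differences are given as the log2 change without Torin1 minus that with it, each called by this test. They were positive for CHMP6 (3.65), TTC5 (3.63), TUBGCP3 (3.38), SNPH (3.24) and ZNF619 (3.02), all of which rose without Torin1. They were negative for RELB (−2.55), CDKN2D (−2.34), ZNF143 (−2.27), TXNIP (−1.99), DNAJB1 (−1.97) and OSER1-DT (−1.97).

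RELB, a subunit of NF-κB, moved in opposite directions, at 15.1, 11.7 and 14 CPM and then at 4.9, 6.14 and 4.31 CPM without Torin1, and rising by 1.14 on the log2 scale with Torin1 (edgeR adjusted p = 0.00372). TXNIP was not called without Torin1 and rose by 2.26 with it (edgeR adjusted p = 6.67e-10), from a mean of 12.7 CPM to 60.6 CPM.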

How the results depend on the processing

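The count of 6540 genes called between 1 h and 4 h of feeding, and the 3950 for the difference between the settings, stayed within 1.5 times in every alternative run. When each library was left out in turn they ran from 5661 to 6376 and from 3456 to 4046. Genes lower by at least 2-fold, 591, were 386 with a minimum count of 50. Of 249 called named genes, 201 kept their calls in all alternatives, 48 lost them in at least 1, and none reversed direction. With DESeq2 size factors the split of the main comparison was 3295 higher and 3372 lower.

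The 241 genes called over time with Torin1 (94 higher and 147 lower) were less stable. They were 460 with the DESeq2 Wald test (163 higher and 297 lower), 364 with no filter (143 and 221) and 725 in a fit of those groups alone (333 and 392). The lower genes were 73 when scaled by total counts and 95 with a minimum count of 50. Leaving out single libraries gave 99 to 204 genes, 47 to 72 higher and 48 to 132 lower. With the replicate number as a block, 374 were called with Torin1, 235 of them lower. Without Torin1 the block called 6762, and same-numbered libraries did not deviate together (r = 0.02, −0.11 and −0.05), so the numbers were not taken to pair them. The alternatives planned for isoform use were not run. The causes of these shifts were not tested.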
